A study of Mus musculus with 55 samples.

Results

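RES mice raised in EE were compared with unstressed mice raised in EE, to ask how the ventral dentate gyrus of a mouse that keeps its social behavior after defeat differs from that of a mouse that was never defeated. The comparison held 18 of the 54 mice of the series, 9 EE RES and 9 EE control mice, chosen by the housing and phenotype in their labels. All were male C57BL/6J mice without a mutation or drug that entered EE, a cage with more to explore than standard housing (SH), after weaning and were used as adults. EE RES mice then met a new CD-1 aggressor on each day of chronic social defeat stress (CSDS) and afterwards had a social interaction (SI) ratio above 1, whereas EE control mice were left undefeated. RES is therefore a class set by 1 test, and the RNA was bulk RNA of a punch from the ventral dentate gyrus of a single mouse. Values for EE mice susceptible to CSDS (SUS), for SH control and for SH RES mice are given only beside those of EE RES mice. Nothing in the labels gives a litter, batch or sequencing date. The methods state fewer replicates per CSDS group than the labels hold and name none to leave out, so every labelled mouse was used.

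The dentate gyrus is the entry gate of the hippocampus. Its granule cells receive cortical input, send mossy fibers to the pyramidal cells of CA3 and are added to throughout life by neural progenitors, a process that EE is known to raise and chronic stress to lower. The ventral part of the hippocampus is tied to anxiety and to the control of the stress hormone axis, and glucocorticoids act there through receptors that granule cells carry in abundance. A punch also holds glia, blood vessels and the blood inside them, and it can take up parts of CA3, CA1, the choroid plexus of the ventricle or the thalamus that lie beside it.

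The 19 libraries of these mice held 37823094 to 49990637 read pairs, of which 18733020 to 24426804 were counted on genes. EE control mouse 9 was sequenced in 2 runs, which were summed, so that 45872357 read pairs were counted for it. Markers of the labelled tissue were present in every mouse, with the granule cell gene Prox1, a transcription factor that holds granule cell identity, between 79.6 and 210 CPM (counts scaled to the size of each library). Single libraries stood apart in markers of tissue beside the dentate gyrus. The summed level of the choroid plexus markers was 360 CPM in EE control mouse 9, 323 CPM in EE RES mouse 3 and 88.4 CPM in EE RES mouse 8, against a median of 25.3 CPM in EE control and 25.8 CPM in EE RES mice. The summed level of the thalamus markers was 1120 CPM in EE RES mouse 6 and 698 CPM in EE RES mouse 8, above the 321 to 544 CPM of all EE control mice. The summed level of the mature granule cell markers was lowest in EE control mouse 5, at 1115 CPM, the mouse with the highest level of CA1 markers among the controls, at 278 CPM.

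No gene differed between EE RES and EE control mice at an adjusted p of 0.05. This held for edgeR's quasi-likelihood test, for limma and for DESeq2 over the 18283 genes tested. An unadjusted p below 0.05 was found for 1413 genes by edgeR (7.73% of those tested), 1367 by limma and 1430 by DESeq2, with 694 (3.80%) higher and 719 (3.93%) lower in EE RES mice by edgeR. The smallest adjusted p of edgeR was 0.234, shared by Fbxo45 and Cdhr1, and the next was 0.546. The standard error of the log2 fold change had a median of 0.063 among the 15279 genes with a mean of at least 1 CPM. On counts simulated for the same mice, edgeR recovered 86% of genes changed by 0.5 on the log2 scale and 100% of those changed by 1. The changed genes all had a mean of at least 1 CPM, and each gene was drawn independently. These percentages therefore do not cover rarer genes or variation between mice that genes share. A p-value here sets the difference between 9 and 9 mice against the spread within groups, estimated over all 54 mice of 6 groups. Each mouse has its own RNA sample.

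At the criterion of the study, an unadjusted p below 0.05 in limma with a fold change above 1.3, there were 214 differentially expressed genes (DEGs), 1.17% of those tested. Of these, 90 (0.492%) were higher and 124 (0.678%) lower in EE RES mice. The DEGs were mostly genes of low level, with a median over DEGs of 0.659 CPM against 13.7 CPM over all genes tested. Only 66 of them had a mean of at least 1 CPM. The direction differed between classes of genes, since protein-coding DEGs were more often higher (56) than lower (41), pseudogenes were close to even (22 higher and 20 lower) and the remaining noncoding or unverified genes were mostly lower (12 higher and 63 lower). Among protein-coding DEGs with at least 1 CPM, 31 were higher and 13 lower. The number of DEGs rested on the low-count filter, with 880 when no filter was used and 87 when at least 1 CPM was asked for in 9 mice.

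The group with the most members past this criterion was that of the red cell genes. All 6 of its genes were higher in EE RES mice and all were DEGs, against 0.492% of all genes tested. The list holds the adult beta-globins Hbb-bs and Hbb-bt, the alpha-globins Hba-a1 and Hba-a2, Alas2, which makes the first intermediate of heme in erythroid cells, and Slc4a1, the anion exchanger of the red cell membrane. None of the 6 reached an adjusted p of 0.05. Hbb-bs lies on chromosome 7 (103826534 to 103828096 of GRCm38), Hba-a1 on chromosome 11 (32283511 to 32284465), Alas2 on the X chromosome (150547375 to 150570638) and Slc4a1 on chromosome 11 (102348824 to 102366203).

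Because these genes lie at separate loci and were all higher, part of the DNA before the start of 3 of them is shown here, from RefSeq for GRCm38.p6. Each sequence runs 5′ to 3′ on the strand of its gene and is the longest stretch of the 250 bases before the RefSeq start that lies outside annotated exons of that gene. Capitals mark matches, on either strand, to GATAA (the core bound by GATA factors), CACCC (the core bound by KLF factors), CCAAT or TATAA, which may overlap.
Hbb-bs, chr7:103827929-103828011, minus strand: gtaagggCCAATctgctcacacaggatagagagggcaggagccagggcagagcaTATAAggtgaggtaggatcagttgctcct
Hba-a1, chr11:32283422-32283510, plus strand: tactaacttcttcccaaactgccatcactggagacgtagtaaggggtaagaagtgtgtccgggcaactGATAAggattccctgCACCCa
Alas2, chrX:150547167-150547374, plus strand: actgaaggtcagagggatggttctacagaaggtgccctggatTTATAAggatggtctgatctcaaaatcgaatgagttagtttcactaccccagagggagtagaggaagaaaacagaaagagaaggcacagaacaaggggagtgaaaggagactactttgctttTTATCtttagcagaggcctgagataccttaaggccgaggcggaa
Over the whole 250 bases, Hbb-bs and Hba-a1 held all 4 motifs, and Alas2 held all but CCAAT. Of 32851 RefSeq promoters of the same length, 22.6% held GATAA, 52.0% CACCC, 33.9% CCAAT and 22.8% TATAA, and 0.968% held all 4. These matches describe the sequence only.

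The 4 globin genes differed by similar factors. Hbb-bs lay between 35.3 and 66.4 CPM with a median of 48.2 in EE control mice, and between 50.4 and 132 CPM with a median of 84.7 in EE RES mice. The groups overlapped, but 7 of 9 EE RES mice were above every control mouse, EE RES mice 1 and 9 being the exceptions. The log2 fold change of Hbb-bs was 0.73 (standard error 0.26, unadjusted p = 0.00778, adjusted p = 0.573 by edgeR). Hbb-bt had a median of 6.84 CPM in EE control mice (4.14 to 8.87) and of 12.3 CPM in EE RES mice (6.77 to 25.8), and its log2 fold change was 1.01 (standard error 0.31). Hba-a1 had medians of 16.9 CPM (12.1 to 20.7) and 27.7 CPM (14.2 to 49.7), and Hba-a2 of 8.44 CPM (5.91 to 10.7) and 14.98 CPM (7.44 to 24.2), with log2 fold changes of 0.74 and 0.73. In both alpha-globins EE RES mouse 6 was highest, EE RES mice 1 and 9 lay within the range of the controls, and so did EE RES mouse 4 for Hba-a1, leaving 6 of 9 EE RES mice above every control for Hba-a1. The copies of each globin are nearly identical in sequence. Read pairs that matched more than 1 place, 9.05% to 12.1% of the 19 libraries, were not counted on genes. Pairs shared by the copies are therefore missing from these levels, while the direction was the same in all 4.

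Alas2 was above every control in more EE RES mice than any other of these genes on the strand-specific counts. It lay between 2.13 and 3.71 CPM with a median of 2.89 in EE control mice, and between 3.62 and 10.2 CPM with a median of 5.26 in EE RES mice. Of the EE RES mice 8 were above every control, and only EE RES mouse 1 fell inside the control range. The log2 fold change was 0.93 (standard error 0.28, unadjusted p = 0.00173, adjusted p = 0.546 by edgeR). With unstranded counts, which add read pairs of the opposite strand, it was 0.22 (unadjusted p = 0.199 by edgeR), and the cause was not tested. Slc4a1 was rare, with 1 to 8 read pairs in an EE control mouse and 1 to 47 in an EE RES mouse, or medians of 0.0965 and 0.438 CPM. Its highest value, 2.13 CPM, came from EE RES mouse 6, and its log2 fold change was 2.25 with it (standard error 0.67, adjusted p = 0.546 by edgeR) and 1.63 without it.

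**Figure D1:**
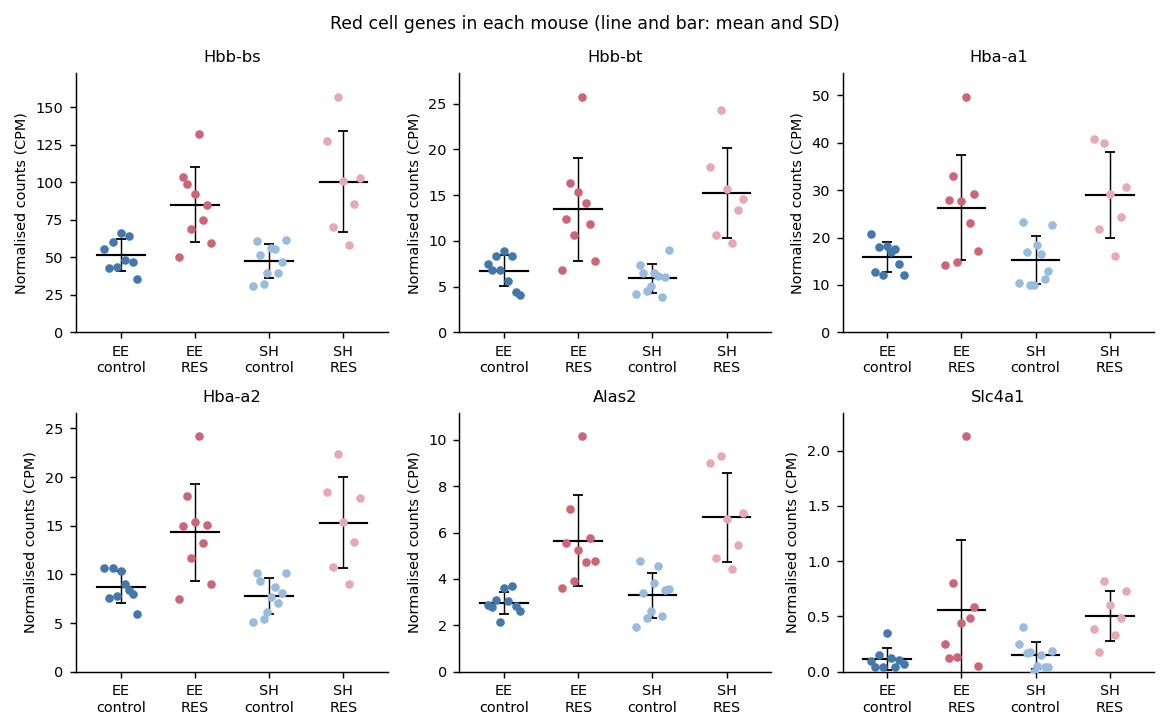
Normalised counts (CPM) of the 6 red cell genes, with a point for each mouse of the EE control, EE RES, SH control and SH RES groups and a line and bar for the mean and SD. Most EE RES mice lie above the EE control mice for each gene (8 of 9 for Alas2), and EE RES mouse 6 is the highest EE RES mouse for each.

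Summed over the 6 genes, the level was 60.2 to 108 CPM in EE control mice (median 82.8) and 82.7 to 244 CPM in EE RES mice (median 147), with 7 EE RES mice above every control. In bulk RNA, more red cells in the punch and more RNA per red cell cannot be told apart. Without EE RES mouse 6, 3 of the 6 genes met the criterion and the median log2 fold change of the list went from 0.83 to 0.70; without EE control mouse 9, 4 of them did. The vessel wall itself gave smaller values. Of 15 endothelial markers 13 had a positive log2 fold change, with a list median of 0.03, or -0.01 without EE RES mice 6 and 8. Their summed levels were 327 to 396 CPM in EE control and 296 to 493 CPM in EE RES mice, the highest again in EE RES mouse 6. By this sum 3 EE RES mice were above and 2 below every control. Of the 15 markers 0 reached an unadjusted p of 0.05 by edgeR, where 7.73% of all genes did. Of 10 pericyte and smooth muscle markers 1 did, Abcc9, a potassium channel regulator of pericytes (0.22), and the list median was -0.02. Of 10 neutrophil and lymphocyte markers only 3 passed the low-count filter and 0 reached an unadjusted p of 0.05. What part blood left in the vessels has in the red cell values was not tested.

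The difference in red cell genes was seen for SH RES against SH control mice too, in animals that share no library with the EE groups. The log2 fold changes in SH were 1.08 for Hbb-bs, 1.36 for Hbb-bt, 0.93 for Hba-a1, 0.97 for Hba-a2, 1.02 for Alas2 and 1.77 for Slc4a1. The difference between the housings had an unadjusted p between 0.359 and 0.827 for these genes by edgeR, with standard errors of 0.38 for Hbb-bs and 0.40 for Alas2, so that a difference of the size of 1 standard error would not have been detectable. EE SUS mice, which were defeated like EE RES mice, had 107 ± 62.7 CPM of Hbb-bs and 6.99 ± 4.32 CPM of Alas2 (mean ± SD, n = 9), against 85.1 ± 25.0 and 5.64 ± 1.97 CPM in EE RES mice (n = 9). The log2 fold change of EE RES over EE SUS mice was -0.33 for Hbb-bs (unadjusted p = 0.204 by edgeR) and -0.31 for Alas2 (unadjusted p = 0.236 by edgeR), each smaller than the spread between mice.

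The protein-coding genes with the smallest p are given next, although none was called at an adjusted p of 0.05. Among those higher in EE RES mice, Sept6, a septin of the filament-forming GTPase family of the cytoskeleton (X chromosome, 36911326 to 36991794), was the only one whose groups did not overlap. Its level was 57.1 to 65.7 CPM in EE control mice (median 61.5) and 65.9 to 72.1 CPM in EE RES mice (median 69.1). All 9 EE RES mice were above all 9 controls, with a gap between the groups that was smaller than the range within either. The log2 fold change was 0.19 (standard error 0.05, unadjusted p = 0.00047, adjusted p = 0.546 by edgeR). Over all genes tested, 7.73% had an unadjusted p below 0.05, and Sept6 is 1 of these. The share of all genes whose groups do not overlap is not given here, so the separation describes Sept6 alone. Counts of EE RES mice above or below every control, given for other genes, have no such share beside them either.

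Fbxo45, the substrate-binding part of a ubiquitin ligase that acts at synapses (chromosome 16, 32230112 to 32247158), had the smallest p among higher genes. It lay at 52.6 to 67.2 CPM in EE control mice (median 57.3) and at 61.5 to 71.4 CPM in EE RES mice (median 69.0). The highest control was EE control mouse 5, and 5 of 9 EE RES mice were above it. The log2 fold change was 0.21 (standard error 0.05, unadjusted p = 2.56e-05, adjusted p = 0.234 by edgeR). A small noncoding gene, Gm25848, overlaps Fbxo45 on the same strand.

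The other 6 higher genes had an adjusted p of 0.546. Adpgk, an ADP-dependent glucokinase, went from a median of 15.8 CPM (13.8 to 17.3) to 17.8 CPM (16.9 to 20.2), with 8 EE RES mice above every control, and Vopp1 from 51.3 CPM (48.1 to 55.0) to 56.6 CPM (50.2 to 62.1), with 7 above. Fxyd7, a small partner of the sodium pump of neurons, had the largest difference of the 8, with 9.18 CPM (7.81 to 11.8) in EE control and 12.8 CPM (10.2 to 17.2) in EE RES mice and a log2 fold change of 0.53, and was the only DEG among them. Acvr1c, a type I receptor for activin-like ligands, had medians of 63.9 CPM (49.8 to 80.5) and 80.6 CPM (63.9 to 88.0). Zfp618, a zinc finger protein, had medians of 4.97 and 6.29 CPM, and Napb, a neuronal adaptor that recycles SNARE complexes after vesicle fusion, of 731 and 829 CPM (0.16, or 0.10 with CA1 and with CA3 and CA2 marker scores as covariates). For these last 3 the groups overlapped over most of their range, with 5, 4 and 2 EE RES mice above every control.

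Among genes lower in EE RES mice, Cdhr1, a protocadherin known from photoreceptors (chromosome 14, 37077857 to 37098347), had the smallest p of all genes. It lay at 13.4 to 25.8 CPM in EE control mice (median 18.6) and at 11.8 to 17.8 CPM in EE RES mice (median 14.1). Of the EE RES mice 8 were at or under 14.5 CPM, while the ninth at 17.8 CPM was EE RES mouse 9, and the lowest controls were EE control mice 5 and 9. The log2 fold change was -0.43 (standard error 0.09, unadjusted p = 2.25e-05, adjusted p = 0.234 by edgeR). Without EE control mouse 5, both Cdhr1 (log2 fold change -0.48) and Fbxo45 (0.24) reached an adjusted p of 0.0162 by edgeR.

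Smad5, which carries bone morphogenetic protein (BMP) signals to the nucleus, came closest to separating the groups among the lower genes. It lay at 55.5 to 61.1 CPM in EE control mice (median 58.0) and at 47.4 to 56.0 CPM in EE RES mice (median 53.4), with 8 EE RES mice below every control and a log2 fold change of -0.13 (standard error 0.04). The noncoding genes Gm27301, Gm27834 and Gm27271 overlap it on the same strand. Rnf39, a RING finger gene of low level, had medians of 2.08 CPM (1.28 to 2.27) and 1.35 CPM (0.843 to 1.61) and a log2 fold change of -0.55 (-0.34 with unstranded counts), and it was a DEG as was Cdhr1. Dab1, the adaptor through which neurons respond to reelin, had medians of 101 CPM (85.3 to 113) and 86.0 CPM (78.1 to 100), with 4 EE RES mice below every control. The other 4 were Rogdi (117 and 95.5 CPM), the predicted gene Gm7173 (6.01 and 4.57 CPM), the cation channel gene Trpm3 (165 and 153 CPM), whose intron carries Mir204, and Sesn3, a stress-responsive sestrin (43.1 and 37.7 CPM), with 2, 1, 1 and 2 EE RES mice below every control and an adjusted p of 0.546 each.

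**Figure D2:**
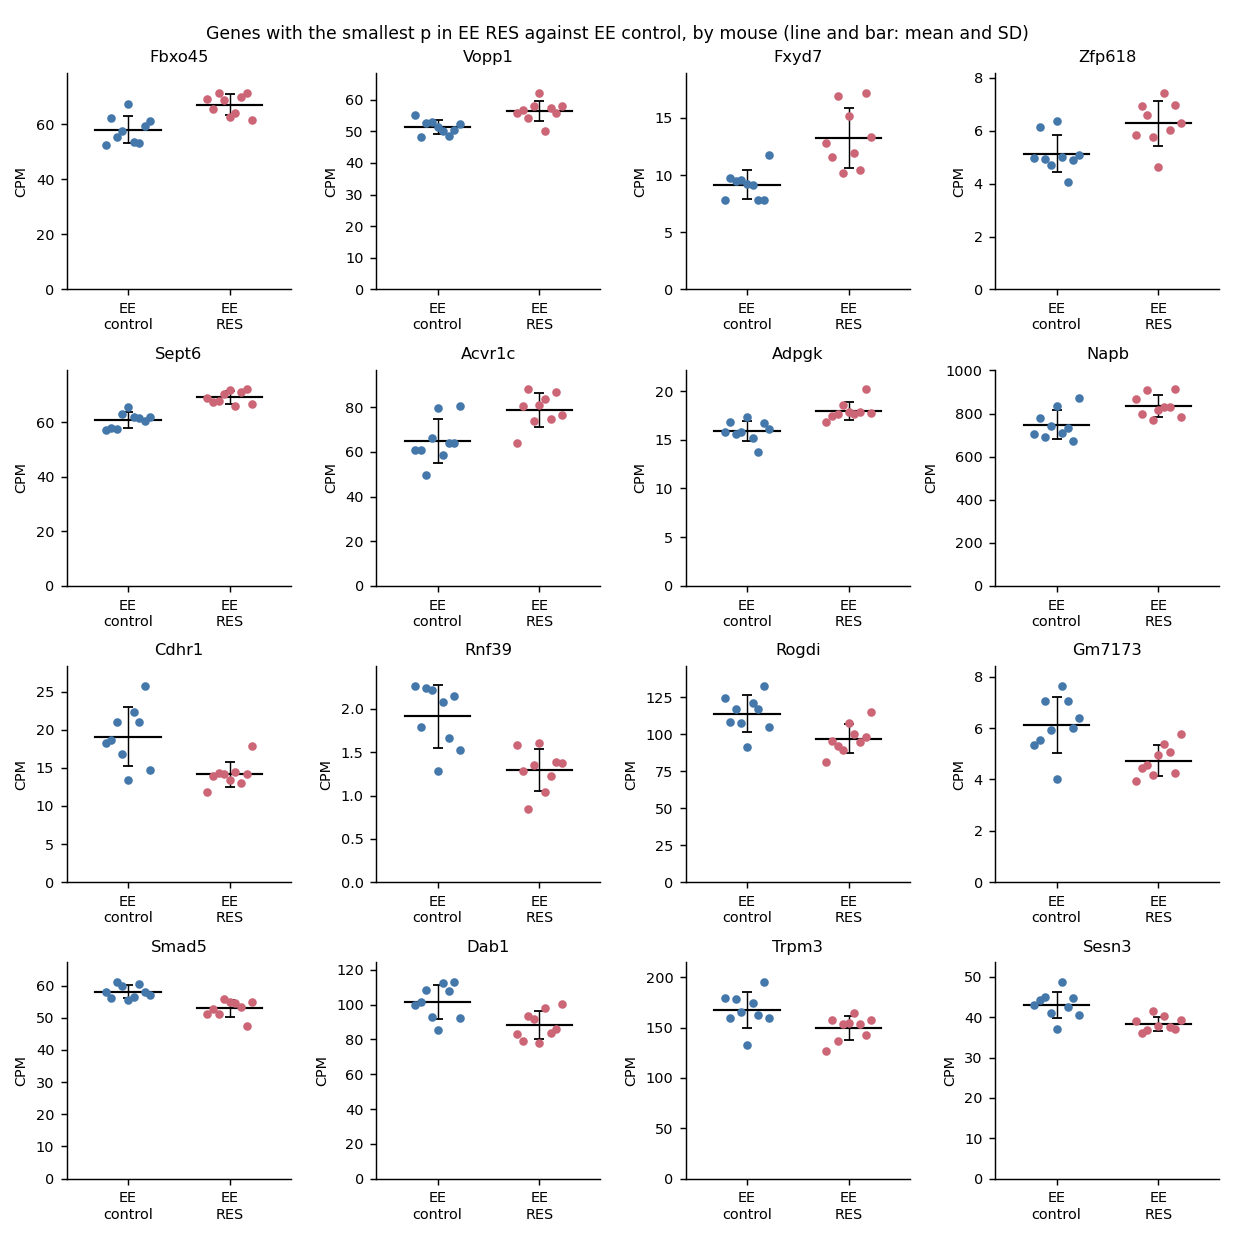
Normalised counts (CPM) of the 8 higher and 8 lower protein-coding genes with the smallest p, with a point per EE control and EE RES mouse and a line and bar for the mean and SD. The groups do not overlap for Sept6 (57.1 to 65.7 against 65.9 to 72.1 CPM) and overlap for the other 15 genes.

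Groups of genes were then followed through 44 lists, 20 of cell type markers and 24 of functions. Of 962 genes in the lists 912 were tested, of which 76 (8.33%) reached an unadjusted p of 0.05, against 7.73% of all genes, none an adjusted p of 0.05, and 17 (1.86%) met the criterion of the study (14 higher and 3 lower), against 1.17%. Of these 17, 6 are the red cell genes. In 35 lists no member met the criterion.

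Markers of granule cells were lower in EE RES mice as a list, by small amounts. All 11 markers of mature granule cells had a negative log2 fold change, with a list median of -0.20 against -0.001 over all genes tested, and 4 had an unadjusted p below 0.05, where 3.93% of all genes did in this direction. These were Prox1 (-0.28), Tdo2, a tryptophan-degrading enzyme (-0.27), Rfx3, a transcription factor (-0.23), and Il1rap, a subunit of the interleukin-1 receptor (-0.18), and none was a DEG. Prox1 had a median of 152 CPM (79.6 to 210) in EE control and 118 CPM (96.5 to 156) in EE RES mice, so that every EE RES mouse lay within the control range. The summed level of the 11 markers was 1115 to 2325 CPM in EE control mice (median 1815) and 1152 to 1857 CPM in EE RES mice (median 1626). With CA1 and with CA3 and CA2 marker scores as covariates the list median was -0.07 and Prox1 was at -0.13 (unadjusted p = 0.187 by edgeR).

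Markers of immature granule neurons went the same way. Of 11 markers 9 had a negative log2 fold change, with a median of -0.17 that was -0.09 with the same covariates, and 3 had an unadjusted p below 0.05, where 3.93% of all genes did in this direction. These were Igfbpl1, a binding protein of insulin-like growth factors that marks immature neurons (-0.48), and the neurogenic transcription factors Neurod1 (-0.18) and Sox11 (-0.17), while Dcx, the standard marker of young neurons, was at -0.11 (unadjusted p = 0.13). Igfbpl1 was a DEG, with medians of 3.03 CPM (1.85 to 4.91) and 2.29 CPM (1.61 to 3.28). Of 15 genes of progenitors and dividing cells 14 were tested and 12 had a negative log2 fold change, with a median of -0.07 that was -0.0075 without EE RES mice 6 and 8. The markers of dividing cells Mki67 (-0.07) and Top2a (-0.19) had an unadjusted p of 0.61 and 0.22 by edgeR.

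Markers of CA3 and CA2 pyramidal cells were mostly higher. Of 12 markers 10 had a positive log2 fold change, with a list median of 0.10, and 3 were higher at an unadjusted p below 0.05, where 3.80% of all genes were: Bok, a BCL-2 family member abundant in CA3 (0.33), Nectin3, an adhesion protein (0.24), and Iyd (0.27). Map3k15, a CA2 marker, was lower (-0.33, unadjusted p = 0.0497). Bok had medians of 52.9 CPM (43.1 to 66.8) in EE control and 63.7 CPM (55.9 to 89.0) in EE RES mice, with EE RES mice 3, 5, 6 and 8 above every control. The summed level of the 12 markers was 484 to 639 CPM in EE control and 512 to 697 CPM in EE RES mice, with EE RES mice 3 and 8 above all controls. These are also the 2 EE RES mice with high choroid plexus markers and with the lowest mature granule cell sums in their group, and without them and EE control mouse 9 the median of the CA3 and CA2 list was 0.05. Bok was at 0.19 with the CA marker scores as covariates. Of 7 CA1 markers 6 had a positive log2 fold change, with a list median of 0.13 that was 0.0016 without EE RES mouse 1. An unadjusted p below 0.05 by edgeR was found for 0 of the 7, where 7.73% of all genes had one.

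All 12 markers of the thalamus were higher in EE RES mice, with a median of 0.54, which was 0.21 without EE RES mouse 6. Members at an unadjusted p below 0.05, which 3.80% of all genes were in this direction, were Prkcd, a protein kinase C of relay neurons (1.18), Tnnt1 (1.16), the receptor partner Ramp3 (0.79) and the transcription factor Zic1 (0.72), of which Prkcd and Ramp3 were DEGs. Prkcd had medians of 17.1 CPM (12.2 to 42.2) in EE control and 33.8 CPM (10.9 to 154) in EE RES mice, the highest value being that of EE RES mouse 6. Without EE RES mice 6 and 8, 0 of the 12 markers met the criterion, the list median was 0.06, Prkcd was at 0.44 (unadjusted p = 0.30 by edgeR) and Ramp3 at 0.34 (unadjusted p = 0.35 by edgeR). With the same mice left out, the median of the red cell list was 0.68 and 3 of its 6 genes met the criterion. Of 15 choroid plexus markers 11 were tested and 0 had an unadjusted p below 0.05, the summed level spanning 21.1 to 360 CPM in EE control and 21.4 to 323 CPM in EE RES mice. No marker of any of the lists for granule cells, thalamus or choroid plexus was at 0 in all 18 mice. The part of neighboring tissue in the granule cell and pyramidal cell values was not tested further.

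**Figure D3:**
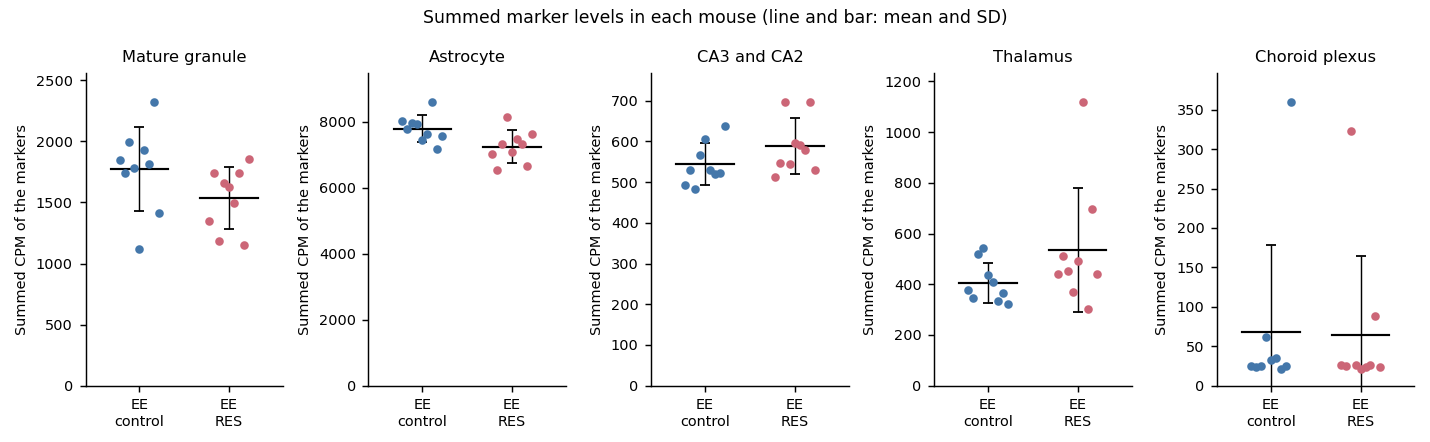
Summed level (CPM) of the markers of mature granule cells, astrocytes, CA3 and CA2 pyramidal cells, thalamus and choroid plexus in each EE control and EE RES mouse, with the mean and SD as line and bar, cut at 0. The groups overlap in every panel, and the thalamus sum of EE RES mouse 6 (1120 CPM) and the choroid plexus sums of EE control mouse 9 (360 CPM) and EE RES mouse 3 (323 CPM) stand apart.

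Astrocyte markers were slightly lower in EE RES mice. Of 14 markers 13 had a negative log2 fold change, with a median of -0.09, and 4 had an unadjusted p below 0.05, against 3.93% of all genes in this direction. They were the gap junction protein Gja1 (-0.15), the glutamate transporters Slc1a3 (-0.14) and Slc1a2 (-0.12), which clear glutamate from the synapse, and the bicarbonate transporter Slc4a4 (-0.10). Gja1 had medians of 201 CPM (175 to 258) and 180 CPM (160 to 204), with 2 EE RES mice below every control. Gfap (-0.07) and Aqp4 (-0.04) had an unadjusted p above 0.3. The summed level was 7184 to 8604 CPM in EE control and 6536 to 8135 CPM in EE RES mice, with 4 EE RES mice below all controls.

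Other cell types had few markers at an unadjusted p below 0.05. None of 15 interneuron, 16 oligodendrocyte, 8 oligodendrocyte precursor or 14 fibroblast markers had an unadjusted p below 0.05 by edgeR, where 7.73% of all genes did, and of 17 microglia markers 1 did, the purinergic receptor P2ry13 (-0.22). Of 9 striatal markers 8 were tested and 1 was lower at this level (Rgs9, -0.24). Of 5 mossy cell markers 1, Calcrl, was lower at this level, and the list median of -0.11 was -0.0025 with the CA marker scores as covariates. Of the 17 microglia markers 13 had a negative log2 fold change, with a median of -0.03. By their summed level 4 EE RES mice were below all controls, as for the astrocyte markers.

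Genes of the stress hormone response gave a few small differences. Of 26 corticosteroid receptor and glucocorticoid target genes 3 were higher at an unadjusted p below 0.05 and 0 were lower, against 3.80% and 3.93% of all genes, with a list median of 0.01. Sgk1, a kinase induced by glucocorticoids, had medians of 62.8 CPM (55.5 to 74.9) in EE control and 74.7 CPM (63.9 to 96.5) in EE RES mice, with 4 EE RES mice above every control (log2 fold change 0.23, standard error 0.08, adjusted p = 0.546 by edgeR), and it was at 0.15 without EE RES mice 6 and 8 (unadjusted p = 0.0649 by edgeR). The others were Nfkbia, the inhibitor of NF-kappaB (0.17), and the arrestin-related Arrdc2 (0.23). None of 36 immediate early genes, which report recent neuronal activity, and none of 18 clock genes had an unadjusted p below 0.05 by edgeR. Among 24 heat shock and chaperone genes Hsp90aa1 (0.15), Hspa4l (0.14) and Hspa4 (0.08) were higher at this level and the small heat shock protein Hspb8 was lower (-0.17).

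Synaptic genes gave few and small differences. Of 26 genes of vesicle release 3 were higher at an unadjusted p below 0.05, where 3.80% of all genes were, and 0 were lower. The 3 were the SNARE proteins Snap25 (0.19) and Vamp1 (0.24) and the vesicle protein Sv2b (0.33). Snap25 had medians of 1305 CPM in EE control and 1452 CPM in EE RES mice, with 3 EE RES mice above every control, and its log2 fold change was 0.09 with the CA marker scores as covariates. Summed over the list, EE RES mice 3 and 8 were highest, and the list median of 0.047 was 0.0042 without EE RES mice 6 and 8. Receptor genes lower at this level included the glutamate receptors Grm3 (-0.15) and Grik2 (-0.10), the GABA-A subunit Gabrg1 (-0.14) and the serotonin receptor Htr1a (-0.16), against 1 higher receptor, Adra1b (0.68). Adra1b was highest in EE RES mouse 6 (6.35 CPM), followed by EE RES mouse 8 (3.13 CPM), the mice with the highest summed thalamus markers. Of 53 potassium channel genes 49 were tested. Kcnc2, a channel of fast-spiking neurons, was higher (0.33), and Kcna3 (-0.19) and Kcnh7 (-0.23) were lower. The highest Kcnc2 values were those of EE RES mice 8 (227 CPM) and 6 (215 CPM).

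Of 36 neuropeptide and secretogranin genes 32 were tested. At an unadjusted p below 0.05 by edgeR 2 were higher and 1 was lower, against 3.80% and 3.93% of all genes. The granins Chgb (0.26) and Chga (0.15), which pack dense-core vesicles, were higher at this level, and Pomc, the precursor of ACTH and endorphin, was lower (-0.28). Cartpt was a lower DEG by limma (-0.36 by edgeR, where it did not reach an unadjusted p of 0.05). Chgb had medians of 555 CPM (455 to 697) and 630 CPM (571 to 912), and was at 0.14 with the CA marker scores as covariates and at 0.17 (unadjusted p = 0.102 by edgeR) without EE control mouse 9 and EE RES mice 3 and 8. Of 23 growth factor genes 22 were tested, of which 3 reached an unadjusted p below 0.05 by edgeR, where 7.73% of all genes did. The insulin-like growth factor binding protein Igfbp5 was lower (-0.33), Igfbp6 was higher (0.36) and the neurotrophin receptor Ntrk3 was lower (-0.11). Igfbp5 had medians of 146 CPM (96.2 to 176) and 103 CPM (91.9 to 145). In 8 of 9 EE RES mice Igfbp5 was at or under 118 CPM, as it was in EE control mice 4, 5 and 9. With the CA marker scores as covariates Igfbp5 was at -0.22.

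Interferon genes gave small differences. Of 29 genes tested 22 had a positive log2 fold change, with a median of 0.09 that was 0.04 without EE control mouse 9 and 0.02 without it and EE RES mice 3 and 8. At an unadjusted p below 0.05 by edgeR 3 were higher, where 3.80% of all genes were, Irf7, the factor that amplifies interferon production (0.39), the antiviral Rsad2 (0.47) and the immunoproteasome subunit Psmb8 (0.23). The DEGs were Irf7, Rsad2 and Serpina3g. Rsad2 had medians of 1.35 CPM (0.974 to 1.59) and 1.82 CPM (1.05 to 3.17), the highest value being that of EE RES mouse 6, and 5 EE RES mice were above every control. Without EE RES mice 6 and 8 Rsad2 was at 0.29 (unadjusted p = 0.168 by edgeR). Serpina3g overlapped fully, between 0.591 and 7.32 CPM in EE control and 2.09 and 5.06 CPM in EE RES mice. Of 18 cytokine and adhesion genes 11 were tested, and Il1a (0.45) and Relb (0.25) were higher at an unadjusted p below 0.05.

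The protein-coding genes of mitochondria divided by genome. All 13 genes encoded in mitochondrial DNA had a negative log2 fold change, with a median of -0.11 (-0.05 without EE control mouse 2) and 1 unadjusted p below 0.05 (mt-Cytb, -0.20), whereas 73 of the 81 nuclear respiratory chain genes tested had a positive one, with a median of 0.04 (0.01 with the CA marker scores as covariates). The summed level of the mitochondrial genes was 15700 to 20850 CPM in EE control and 14710 to 18600 CPM in EE RES mice. The 13 genes share transcripts of 1 genome and are not independent of each other. Of 77 ribosomal protein genes tested, 0 had an unadjusted p below 0.05 by edgeR, where 7.73% of all genes did. Of 15 hypoxia-inducible genes tested 13 had a positive log2 fold change, with Adm, a vasodilator peptide (0.50), as a DEG and Bnip3 (0.11) at an unadjusted p below 0.05.

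Of the remaining lists, axon guidance genes were higher at an unadjusted p below 0.05 in 4 cases (Epha4, Robo1, Sema4a, Sema7a) and lower in 2 (Efnb3, Plxnb1) of 67 tested, against 3.80% and 3.93% of all genes. Among 25 genes of TGF-beta and BMP signaling Tgfbr1, a type I receptor, was lower (-0.22) and Acvr1c, described above, was higher. Single members passed among 20 DNA methylation and deacetylase enzymes (Tet2, -0.11), 41 collagens tested (Col11a2, -0.26), 18 cholesterol synthesis genes (Sqle, 0.13) and 5 ependymal markers tested (Rsph1, -0.27). None of 13 perineuronal net genes and none of 18 endoplasmic reticulum stress genes tested did so by edgeR.

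**Figure D4:**
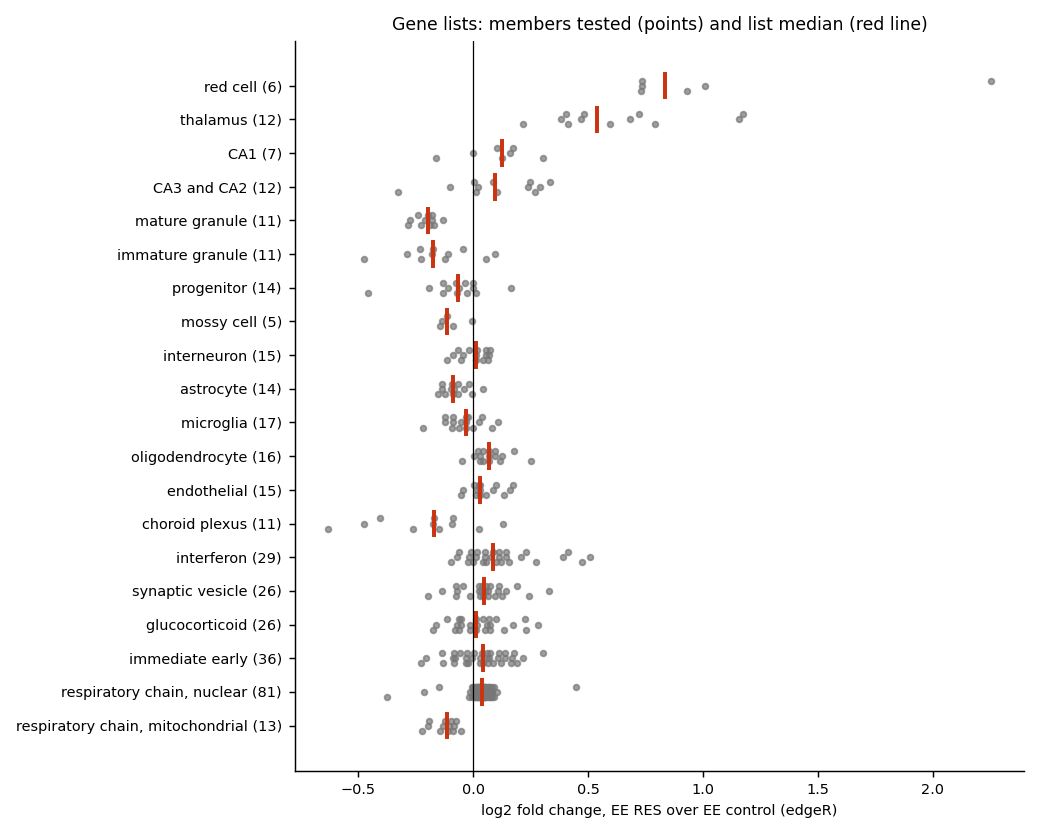
Log2 fold change of EE RES over EE control mice by edgeR for the tested members of 20 lists, with a point per gene and a red line at the list median; the number of tested members is in parentheses. The red cell (median 0.83) and thalamus (0.54) lists lie to the right of 0, the mature granule cell list (-0.20) to the left, and most lists center near 0.

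The DEGs outside the lists that follow were picked after their values were seen. Nostrin, which traffics endothelial nitric oxide synthase, had medians of 2.81 CPM (2.35 to 4.08) in EE control and 3.82 CPM (2.88 to 5.35) in EE RES mice (log2 fold change 0.40, standard error 0.12, adjusted p = 0.546 by edgeR). Edn1, the vasoconstrictor endothelin, was at 1.15 and 1.68 CPM (0.44), Ccn2, a matrix protein induced by mechanical strain, at 2.03 and 2.998 CPM (0.81), and Ctla2a, a protease inhibitor, at 3.67 and 5.17 CPM (0.59), with EE RES mouse 6 highest for Ctla2a at 12.8 CPM. Without that mouse Ctla2a was at 0.36, and without EE RES mice 6 and 8 at 0.31 (unadjusted p = 0.0525 by edgeR). Of the endothelial list, as given above, 0 of 15 markers reached an unadjusted p of 0.05, where 7.73% of all genes did. Medag separated the groups better than these, with 9.59 CPM (7.39 to 10.9) and 11.6 CPM (9.74 to 14.5) and 7 EE RES mice above every control. Higher DEGs also included Fmo2 (0.69), Ubash3a (0.69), Cbln1, a synapse-organizing secreted protein (0.68), Wnt3, a ligand of WNT signaling (0.60), Prkch (0.52), Tent5c (0.43), Cd109 (0.42) and Hs3st4, a heparan sulfate sulfotransferase (0.36). Wnt3 and Prkch were highest in EE RES mouse 6 (3.58 and 10.3 CPM), followed by EE RES mouse 8 (2.73 and 6.31 CPM). These are the mice with the highest summed thalamus markers. Lower DEGs with at least 1 CPM included Vwa5b1 (-0.48), Rgsl1 (-0.44), the chemokine Ccl9 (-0.43), Cubn, an endocytic receptor (-0.40), and Mamstr (-0.36).

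The difference between RES and control mice was then compared between the housings. No gene differed between EE and SH in this contrast at an adjusted p of 0.05 by edgeR, limma or DESeq2, the smallest being 0.580 by edgeR, and 1463 genes had an unadjusted p below 0.05 by edgeR (721 or 3.94% higher and 742 or 4.06% lower), 1445 by limma and 1464 by DESeq2. The EE and SH log2 fold changes had a Spearman rho of -0.212 over the genes tested, from mice that share no library, and genes are not independent of each other. The 16 leading genes above had SH log2 fold changes between -0.10 and 0.11. They were chosen by their p in EE, so values nearer 0 in SH follow in part from that choice. The genes with the smallest p for the difference were Fbxo45 (EE 0.21, SH -0.07), Cdh13 and Lrrc2. Fbxo45 also had the smallest p among genes higher in EE RES mice, and the same EE mice enter both contrasts. Cdh13, a cadherin without a cytoplasmic part, was at 62.5 ± 7.09 and 56.4 ± 5.11 CPM in EE control and EE RES mice (mean ± SD, n = 9 each) and at 59.4 ± 7.28 and 70.2 ± 8.93 CPM in SH control (n = 10) and SH RES mice (n = 7). Its log2 fold change was -0.15 in EE and 0.24 in SH, a difference of -0.39 (standard error 0.09, unadjusted p = 0.000124, adjusted p = 0.580 by edgeR). Lrrc2 had the same signs, with -0.29 in EE and 0.30 in SH (difference -0.59, standard error 0.15, adjusted p = 0.580 by edgeR), and 6 of 9 EE RES mice were below every EE control mouse for it. Gm22999 overlaps Cdh13 and Gm43535 overlaps Lrrc2 on the same strand.

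**Figure D5:**
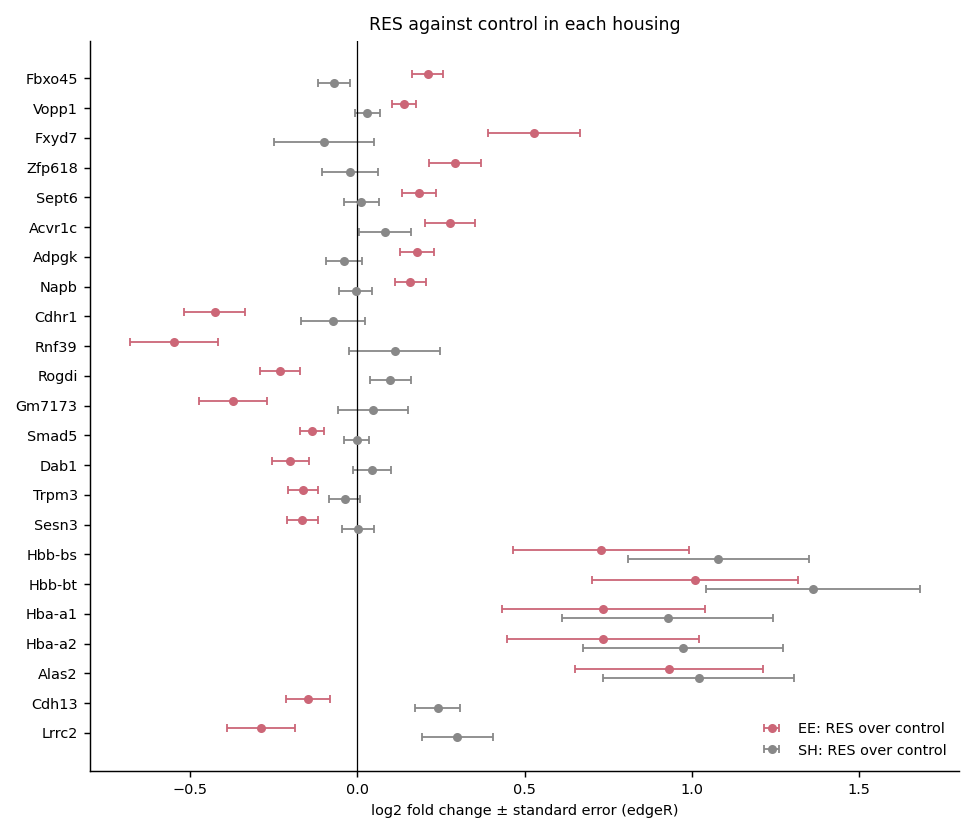
Log2 fold change of RES over control mice with its standard error (edgeR) in EE and in SH, for the leading genes, 5 red cell genes and the genes with the smallest p for the difference between housings. The red cell genes lie to the right of 0 in both housings, between 0.73 and 1.36. The leading genes, which were chosen by their p in EE, lie between -0.10 and 0.11 in SH.

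EE RES mice were also set against EE SUS mice, which share both housing and defeat. No gene passed an adjusted p of 0.05 by edgeR, limma or DESeq2, the smallest adjusted p of edgeR was 0.9997, and 629 genes (3.44%) had an unadjusted p below 0.05 by edgeR, 602 by limma and 595 by DESeq2. The protein-coding genes with the smallest p were Bmp3, E430018J23Rik and Traf1. Bmp3, a secreted BMP family member, was at 4.65 ± 1.84 CPM in EE RES, 2.92 ± 0.447 CPM in EE SUS and 3.81 ± 0.639 CPM in EE control mice (mean ± SD, n = 9 each). It was 0.66 higher than in EE SUS mice on the log2 scale (standard error 0.16, unadjusted p = 0.000154 by edgeR). E430018J23Rik was at 8.97 ± 0.615, 10.4 ± 0.874 and 10.2 ± 0.661 CPM in the same order, and Traf1, an adaptor of tumor necrosis factor receptors, at 0.591 ± 0.226, 0.964 ± 0.275 and 0.681 ± 0.132 CPM. The leading genes above were chosen by EE RES against EE control mice, so smaller differences from EE SUS mice follow in part from that choice. Only some of them are given here. The log2 fold change of EE RES over EE SUS mice was 0.09 for Fbxo45 (unadjusted p = 0.0535), 0.02 for Sept6 (unadjusted p = 0.633) and -0.04 for Smad5 (unadjusted p = 0.301), all by edgeR. For Cdhr1 it was -0.20 (unadjusted p = 0.038 by edgeR) and for Vopp1 0.10 (unadjusted p = 0.00951 by edgeR), both with an adjusted p of at least 0.9997.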

How the data were processed

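RNA of ventral dentate gyrus punches was sequenced by the authors with a reverse-stranded total RNA kit, 1 mouse per sample, and aligned to GRCm38 with STAR (the submitters' processing notes name STAR, Picard and mm10). The deposited values are raw counts of read pairs per gene. The methods name featureCounts, whereas the files have the layout of STAR gene counts. The reverse-strand column was used. Rows without a gene entered neither library sizes nor tests, and read pairs on no gene made up 20.5% to 27.5% of the libraries. For EE control mouse 9 both runs were added (r of log2 CPM 0.9991 between runs, at most 0.9980 with another EE control mouse). Of 45318 identifiers 44671 matched GENCODE M21.

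Groups came from the labels. Counts of 54 mice in 6 groups were normalized by TMM, filtered with filterByExpr and tested with edgeR 4.0.16 (robust quasi-likelihood, Benjamini-Hochberg) in R 4.3.3. DEGs used limma 3.58.1 (voom). DESeq2 1.42.0 was an alternative, beside other scaling, filters, strand, samples, covariates, weights, a replicate block and each mouse left out. Tables and plots used Python 3.11.15. Counts simulated for EE RES against EE control mice, over 18185 genes, held 100 genes changed by 0.5 and 100 by 1 on the log2 scale. The changed genes all had a mean of at least 1 CPM, and 8 other genes were called. CPM are TMM-scaled, and depth limits genes of few counts most.

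The mice, gene lists and tests were chosen with earlier results of these data known. Genes named by rule were the 8 protein-coding genes per direction with the smallest p and a mean of at least 1 CPM, the 3 with the smallest p for the difference between housings and for EE RES against EE SUS mice, and the cell type markers. Genes named from the function lists and the DEGs outside the lists were chosen after their values were seen, as were the alternatives without EE RES mice 6 and 8, and without EE control mouse 9 and EE RES mice 3 and 8. Some genes counted in the lists are not reported here.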

Additional observations from a re-analysis of the deposited data

Results flagged for a closer look

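In 14 of 112 sets of 9 mice examined, the highest or lowest mouse lay far from the nearest other mouse relative to the range of its group (Dixon's 95% criterion, which chance meets in about 1 in 20 groups). EE RES mouse 6 accounted for 6 of these sets, with the highest Hbb-bt (25.75 CPM), Slc4a1 (2.131 CPM), Prkcd (153.7 CPM), Ramp3 (14.1 CPM), Ctla2a (12.83 CPM) and summed thalamus markers (1120 CPM). The same mouse had the highest endothelial sum (493 CPM), so red cell, vessel and thalamus genes were high together in it. EE RES mouse 8 was highest for Adpgk (20.18 CPM) and Traf1 (1.074 CPM), EE RES mouse 9 for Cdhr1 (17.83 CPM) and Igfbp5 (145.1 CPM), and EE RES mouse 3 for the summed choroid plexus markers (323 CPM). Among controls, EE control mouse 9 was highest for the choroid plexus sum (360.2 CPM) and Fxyd7 (11.77 CPM), and EE control mouse 5 for Slc4a1 (0.353 CPM). Adpgk in EE RES mouse 8 lies further from the controls, as do the red cell genes in EE RES mouse 6, while Cdhr1 and Igfbp5 in EE RES mouse 9 and Fxyd7 in EE control mouse 9 lie toward the opposite group.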

How the results depend on the processing

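No gene reached an adjusted p of 0.05 in EE RES against EE control mice under any alternative tried except leaving out EE control mouse 5, when 2 did (range over mice left out 0 to 2) and the unadjusted count was 2267. By DESeq2 the smallest adjusted p was 0.0562, for Fbxo45 and Cdhr1. The contrast between housings and EE RES against EE SUS mice stayed at 0 under all alternatives run for them. DEGs numbered 880 (402 higher, 478 lower) with no low-count filter and 87 (40 and 47) with the stricter filter, and 197 to 305 (75 to 140 higher, 110 to 169 lower) with each mouse left out. List members at an unadjusted p below 0.05 numbered 76, 58 to 138 with each mouse left out (138 without EE control mouse 5) and 39 without EE control mouse 9 and EE RES mice 3 and 8. List members at the study criterion numbered 8 without EE control mouse 9 and 10 without EE RES mouse 6, against 17. With CA1 and with CA3 and CA2 scores as covariates 802 genes had an unadjusted p below 0.05, against 1413. With no filter, 1308 genes did in EE RES against EE SUS mice, against 629. The median of the ependymal list was 0.07 without EE control mouse 9, against -0.20, and that of the choroid plexus list spanned -0.63 to 0.71 over the mice left out. None of the 47 genes for which alternatives were run changed direction. The causes were not tested, beyond the number of genes that each filter lets in.

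Replicate numbers in the titles did not pair the mice, since 1 of 9 same-numbered pairs had a correlation of deviations over 0.1 (range -0.212 to 0.124) and 0 of 9 EE control mice was closest to its own number. With the replicate block 0 genes reached an adjusted p of 0.05 in all 3 contrasts, and 1453 genes had an unadjusted p below 0.05 in EE RES against EE control mice, 1624 in the difference between housings and 659 in EE RES against EE SUS mice. There were 208 DEGs and 77 list members with the block.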
